A study of Homo sapiens with 8 samples.

Results

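Histone acetyltransferases are the enzymes that add acetyl groups to histone lysines, and histone deacetylases, the targets of belinostat, remove them. The results below follow the mRNA of 10 acetyltransferase genes, picked by name and matched by symbol to the 58884 Ensembl genes counted in U87 cells: EP300, CREBBP, KAT2A, KAT2B, KAT5, KAT6A, KAT6B, KAT7, KAT8 and HAT1. All 10 were found, and all 10 passed the filter on low counts, as did 14741 genes in all. They form 3 families. EP300 and CREBBP encode the paralogous coactivators p300 and CBP, which acetylate histone H3 at enhancers and promoters. KAT2A (GCN5) and KAT2B (PCAF) are alternative catalytic subunits of the SAGA and ATAC coactivator complexes, and HAT1 acetylates newly made histone H4 before it is placed on chromatin. KAT5 (TIP60), KAT6A (MOZ), KAT6B (MORF), KAT7 (HBO1) and KAT8 (MOF) share the MYST catalytic domain. KAT5 works in the TIP60-EP400 complex, which takes part in the response to DNA breaks, KAT7 in complexes that assist replication origins, and KAT8 in the MSL and NSL complexes.

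The data are RNA-seq counts from U87, an established human glioblastoma line, with 4 groups of 2 libraries. The combination group was kept on AsiDNA long-term and also received 1 µM belinostat for 24 h. A belinostat group received that belinostat treatment without AsiDNA, an AsiDNA group the long-term AsiDNA alone, and a DMSO group the solvent. AsiDNA is a short DNA duplex that imitates a double-strand break and draws repair enzymes away from real breaks. All groups are 1 cell line grown in DMEM with serum, and the sources used here give neither the dose nor the length of the AsiDNA treatment. They also do not say whether the 2 libraries of a group came from separate cultures, so p-values measure only the spread between these libraries, which may be technical.

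The libraries held between 6057394 and 9699637 counts. The 10 genes together took between 2442 and 6071 counts per library, and the lowest count of any of them was 101. CDKN2A and MTAP, which U87 is known to have lost, had 0 counts in all 8 libraries. The mesenchymal markers VIM, CD44, FN1 and TNC were abundant, whereas the glial markers SOX2, GFAP, S100B and OLIG2 were at 0 or near 0. The mesenchymal marker CHI3L1 was low, between 0.604 and 21.6 CPM (counts relative to the scaled library total), and NES had between 4.95 and 56.6 CPM. Of the markers of neurons, immune cells, endothelium and epithelium, SNAP25 had between 34.6 and 130.2 CPM, and no other passed 20.6 CPM (PECAM1). PTPRC and RBFOX3 had at most 1 count. DMSO replicate 2 stood apart from DMSO replicate 1: 11.1% of 8142 well-expressed genes differed by over 1.5-fold between them, against at most 0.786% within any other group. Genes annotated as sense-intronic, which lie in introns of other genes, took 0.0561% and 0.0440% of counts in the combination, 0.128% and 0.142% with belinostat, 0.0556% and 0.0510% with AsiDNA and 0.0570% and 0.113% with DMSO. The belinostat libraries and DMSO replicate 2 were the 3 highest. The nuclear RNAs MALAT1 and NEAT1 together took 3.12% and 2.06% of counts in the combination, 12.2% and 13.4% with belinostat, 0.753% and 0.688% with AsiDNA and 0.911% and 2.81% with DMSO, and the part of this in the results below was not tested.

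Levels between genes were compared as CPM per kilobase of annotated exon, given as mean ± SD of 2 libraries. In DMSO cells HAT1 was highest at 13.5 ± 1.80, followed by KAT5 at 9.21 ± 0.426, KAT2A at 8.29 ± 3.05, EP300 at 7.56 ± 0.730, KAT8 at 7.23 ± 1.06 and KAT2B at 5.61 ± 0.527. KAT6A at 4.42 ± 0.0541, KAT7 at 4.27 ± 0.305, CREBBP at 3.17 ± 0.459 and KAT6B at 1.66 ± 0.237 were lower. KAT5, EP300, KAT8 and KAT2B lay within the spread of KAT2A, and KAT6A within that of KAT7. The exon lengths behind this order are unions over all annotated transcripts, from 3732 bases for KAT5 to 32495 for KAT6B, and the order depends on them. By CPM without the length, KAT6A at 107 and EP300 at 94.5 lay above HAT1 at 91.4 in DMSO cells. HAT1 was also highest in the combination at 13.7 ± 1.34 and with AsiDNA at 14.5 ± 1.08. With belinostat KAT2A at 11.1 ± 0.758 and HAT1 at 11.01 ± 0.161 lay within each other's spread. CREBBP and KAT6B held the last 2 ranks in all 4 groups, at 1.11 ± 0.0315 and 0.552 ± 0.0902 in the combination. Summed over the 10 genes, the level per kilobase was 49.6 and 53.6 in the combination libraries, 61.4 and 62.7 with belinostat, 62.2 and 61.5 with AsiDNA, and 62.5 and 67.3 with DMSO. The combination libraries were below the other 6, which overlapped.

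**Figure D1:**
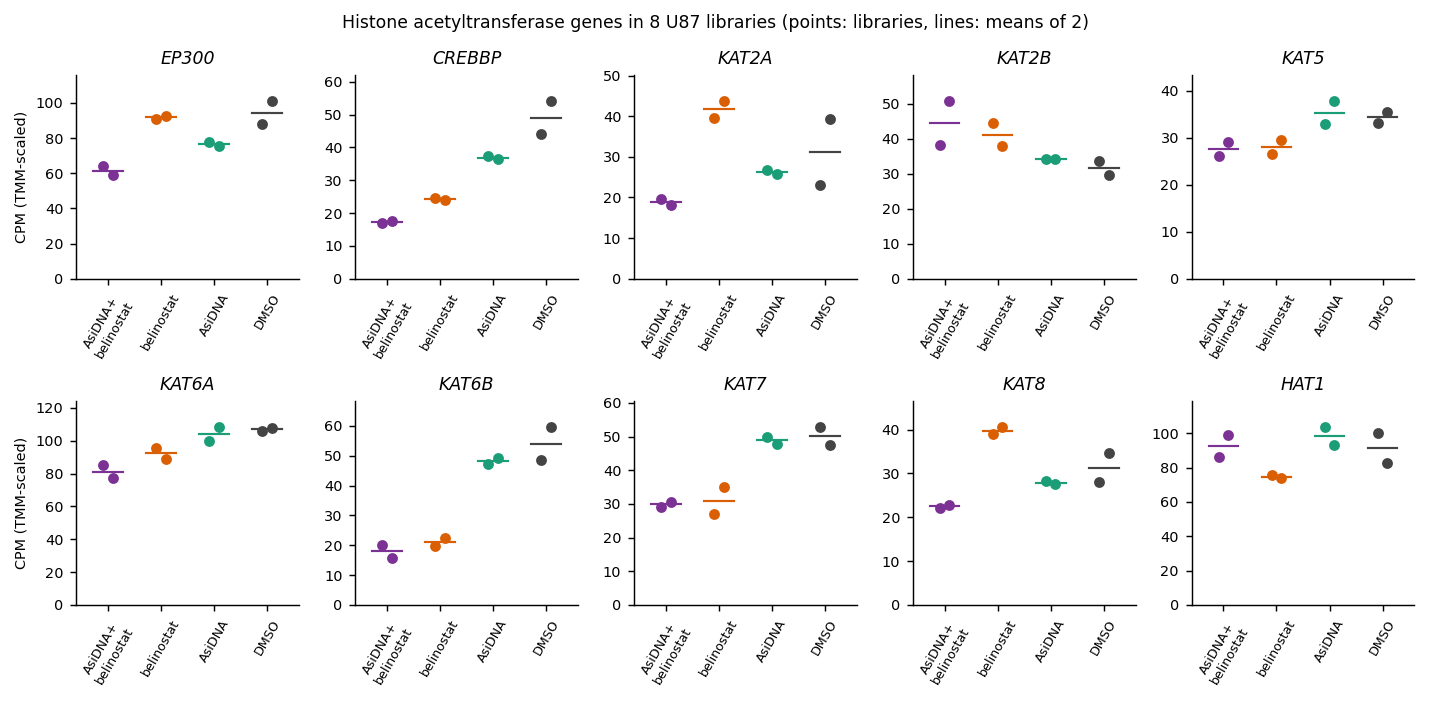
Level of each acetyltransferase gene in every library, in CPM scaled by TMM factors, by group, with points for libraries and lines for means of 2. CREBBP, KAT6B and KAT7 sit lower in all 4 libraries with belinostat than in all 4 without it, whereas KAT2A and KAT8 are high with belinostat alone and low in the combination.

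With belinostat 3 of the 10 genes fell in cells without AsiDNA: KAT6B, CREBBP and KAT7. The same 3 genes and KAT6A fell in cells kept on AsiDNA. The falls were to between 0.388 and 0.614 of the DMSO level in the first comparison, and none of the 10 genes rose in either one. The first comparison, belinostat against DMSO, asks what deacetylase inhibition did in cells without AsiDNA, and the second, the combination against AsiDNA, asks the same in AsiDNA cells. The 2 comparisons share no library. The libraries of the compared groups overlapped only for EP300 in the first and only for HAT1 in the second. The share of all genes without overlap was not counted, so a lack of overlap below only describes the libraries. Calls required an adjusted p under 0.05 by edgeR's quasi-likelihood test, with Benjamini-Hochberg adjustment over all 14741 tested genes. Differences below are log2 fold changes ± their standard errors, with 2 libraries in each group. By this rule 57.4% of all tested genes were called with belinostat against DMSO (29.8% higher and 27.6% lower), so the 3 of 10 lower members are near the background. In AsiDNA cells 42.9% of all genes were called (21.7% higher and 21.2% lower), against 4 of 10 members, all lower. The median log2 fold change of the 10 genes was -0.25 and -0.35 in these comparisons, against 0.06 and 0.02 over all tested genes. Although no member was called higher, 2 members without AsiDNA and 1 with it were higher at an unadjusted p under 0.05, and DESeq2 also called 0 higher in each. Scaling by library size alone moved the median of all genes by -0.14 and -0.13. The members called lower were then 6 and 7. Over all genes 4799 and 3961 were called lower, against 4071 and 3120 with TMM scaling. Of all calls 42.8% and 39.3% were higher, against 51.9% and 50.6% with TMM scaling. Without DMSO replicate 1 or 2, more members were called lower in AsiDNA cells. That comparison uses no DMSO library. The log2 fold changes of the members that gained a call hardly moved, while their standard errors became smaller. The members' share of calls was not set against all genes there. In bulk RNA, fewer cells expressing a gene and less of its RNA per cell cannot be told apart.

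**Figure D2:**
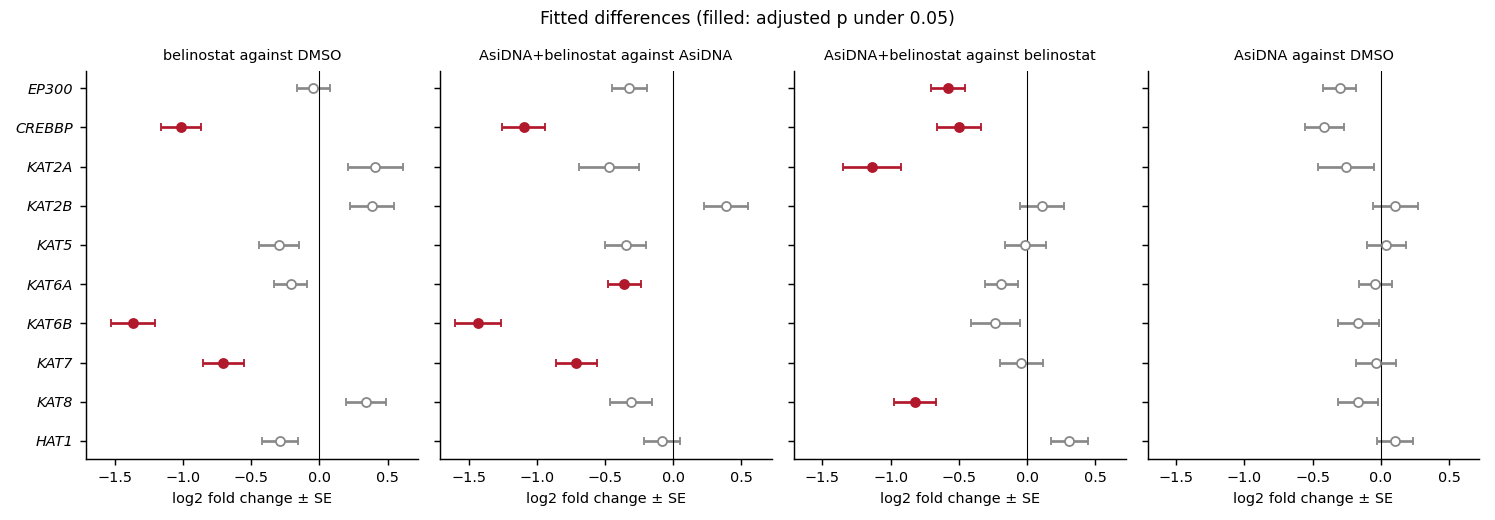
Fitted log2 fold change of each gene with its standard error in 4 comparisons, where filled points passed an adjusted p under 0.05. CREBBP, KAT6B and KAT7 lie left of 0 at similar distances in both belinostat comparisons, and EP300, CREBBP, KAT2A and KAT8 are the 4 genes below 0 past the threshold when the combination is set against belinostat.

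CREBBP (ENSG00000005339, chromosome 16, 3725054 to 3880726, GRCh38, minus strand) had 24.6 and 23.9 CPM with belinostat, against 44.0 and 54.1 CPM with DMSO. In AsiDNA cells it had 16.9 and 17.5 CPM with belinostat, against 37.3 and 36.4 CPM without. All 4 belinostat libraries were below all 4 others, and the groups did not overlap. Its log2 fold change was -1.01 ± 0.15 without AsiDNA (adjusted p = 6.65e-05) and -1.10 ± 0.16 with it (adjusted p = 8.98e-05).

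EP300 (ENSG00000100393, chromosome 22, 41091786 to 41180079, plus strand), the paralogue of CREBBP, did not fall with it. It had 91.0 and 92.5 CPM with belinostat, within the 88.1 and 101 CPM of the DMSO libraries (-0.04 ± 0.12, adjusted p = 0.779). In AsiDNA cells EP300 had 63.9 and 58.9 CPM with belinostat, against 77.9 and 75.4 CPM without (-0.32 ± 0.13, adjusted p = 0.0541). The groups did not overlap there, but the difference missed the threshold. Without DMSO replicate 1 or 2, which are not in this comparison, it stayed at -0.33 and passed with a smaller standard error (0.10).

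Among the MYST genes, KAT6B (ENSG00000156650, chromosome 10, 74824927 to 75032624, plus strand), the catalytic subunit of the MORF complex, fell furthest. It had 19.7 and 22.4 CPM with belinostat, against 48.6 and 59.5 CPM with DMSO (-1.37 ± 0.16, adjusted p = 1.11e-05). In AsiDNA cells it had 20.02 and 15.9 CPM with belinostat, against 47.1 and 49.3 CPM without (-1.43 ± 0.17, adjusted p = 1.72e-05). The 4 libraries with belinostat lay far below the 4 without it. KAT7 (ENSG00000136504, chromosome 17, 49788555 to 49835030, plus strand), which acetylates histone H3 and H4 near replication origins, had 27.0 and 35.1 CPM with belinostat, against 52.7 and 47.7 CPM with DMSO (-0.70 ± 0.15, adjusted p = 0.00132). In AsiDNA cells it had 29.03 and 30.7 CPM with belinostat, against 49.99 and 47.9 CPM without (-0.71 ± 0.15, adjusted p = 0.00203). Again the groups did not overlap. These 3 genes kept their calls in both comparisons under every alternative run, from all 8 fits that left out 1 library to the fits with another scaling, filter or tool.

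KAT6A (ENSG00000083168, chromosome 8, 41929479 to 42052026, minus strand), the paralogue of KAT6B, moved less. It had 95.6 and 89.1 CPM with belinostat, against 106 and 108 CPM with DMSO, which missed the threshold (-0.21 ± 0.12, adjusted p = 0.15). In AsiDNA cells it had 85.3 and 77.1 CPM with belinostat, against 99.98 and 108 CPM without, and fell by 0.36 ± 0.12 (adjusted p = 0.0283). That call was lost without either AsiDNA library (adjusted p = 0.0899 without replicate 1 and 0.214 without replicate 2) and without either combination library (0.0643 and 0.175).

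KAT5 (ENSG00000172977, chromosome 11, 65711996 to 65719604, plus strand), the MYST enzyme of the break response, did not pass in either comparison. It had 26.6 and 29.5 CPM with belinostat, against 33.2 and 35.5 CPM with DMSO (-0.30 ± 0.15, adjusted p = 0.0997). On long-term AsiDNA the level was 26.2 and 29.2 CPM with belinostat, against 33.0 and 37.8 CPM without (-0.35 ± 0.15, adjusted p = 0.0744). In both comparisons its libraries were lower with belinostat and did not overlap. The first was at -0.36 without DMSO replicate 1, and between -0.46 and -0.28 over all fits that left out 1 library. The second stayed at -0.35 without DMSO replicate 1 or 2, which it does not use, and passed with a smaller standard error (0.13). KAT5 shares 38.6% of its exon length with RNASEH2C, a ribonuclease subunit gene on the opposite strand. The strand setting of the counting is not given in the sources used here, so the split of reads between these genes is uncertain. RNASEH2C rose with belinostat against DMSO by 0.68 ± 0.13 on the log2 scale (adjusted p = 0.000508). In AsiDNA cells it was at 0.20 ± 0.13 with belinostat and did not pass (adjusted p = 0.237).

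KAT8 (ENSG00000103510, chromosome 16, 31115754 to 31131393, plus strand), which acetylates histone H4 on active genes, had 39.1 and 40.5 CPM with belinostat, against 28.1 and 34.6 CPM with DMSO (0.34 ± 0.15, adjusted p = 0.0592). On long-term AsiDNA the level was 22.2 and 22.8 CPM with belinostat, against 28.3 and 27.5 CPM without (-0.31 ± 0.16, adjusted p = 0.126). The libraries were above DMSO in the first case and below AsiDNA in the second, with no overlap, and neither difference passed. KAT2A (ENSG00000108773, chromosome 17, 42113108 to 42121358, minus strand), the GCN5 subunit, had the same order. It had 39.7 and 43.7 CPM with belinostat, against 23.1 and 39.4 CPM with DMSO (0.41 ± 0.20, adjusted p = 0.0959). On long-term AsiDNA the level was 19.7 and 18.2 CPM with belinostat, against 26.7 and 25.8 CPM without (-0.47 ± 0.22, adjusted p = 0.0983). The higher DMSO library of KAT2A and KAT8, replicate 2, lay close to the belinostat libraries. Without DMSO replicate 2, which left a lone DMSO library, KAT2A was at 0.82 and KAT8 at 0.47 with belinostat. Over all fits that left out 1 library, KAT2A lay between 0.07 and 0.82 and KAT8 between 0.19 and 0.47. Leaving out DMSO replicate 1 or 2, which the comparison in AsiDNA cells does not use, hardly moved the values there. KAT2A was at -0.48 and KAT8 at -0.31 in both fits. Both genes then passed with smaller standard errors (0.14 for KAT2A in both fits).

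KAT2B (ENSG00000114166, chromosome 3, 20040023 to 20154404, plus strand), the PCAF subunit and paralogue of KAT2A, was the one gene of the 10 that lay above its control in both comparisons, with no overlap of libraries. It had 44.6 and 37.8 CPM with belinostat, against 33.7 and 29.5 CPM with DMSO (0.39 ± 0.16, adjusted p = 0.0564). On long-term AsiDNA the level was 38.0 and 50.7 CPM with belinostat, against 34.0 and 34.0 CPM without (0.39 ± 0.16, adjusted p = 0.0716). Both differences missed the threshold. Without DMSO replicate 1 the first was at 0.48, and over all fits that left out 1 library it lay between 0.17 and 0.48. The second stayed at 0.39 without DMSO replicate 1 or 2, which it does not use, and passed with a smaller standard error (0.12). Without combination replicate 1 the second was at 0.57, and over all fits that left out 1 library it lay between 0.13 and 0.57. HAT1 (ENSG00000128708, chromosome 2, 171922448 to 171983682, plus strand), the enzyme of new histones, had 75.6 and 74.0 CPM with belinostat, against 99.99 and 82.8 CPM with DMSO (-0.29 ± 0.14, adjusted p = 0.0829). On long-term AsiDNA the level was 86.3 and 99.1 CPM with belinostat, against 103 and 93.0 CPM without (-0.08 ± 0.13, adjusted p = 0.659), and these libraries overlapped. Belinostat libraries were below both DMSO libraries. Without DMSO replicate 2 HAT1 was at -0.44 with belinostat against DMSO. It was at -0.38 there without combination replicate 1 or 2, which are not in that comparison. Over all fits that left out 1 library it lay between -0.44 and -0.15.

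The promoters of the 3 genes called lower in both comparisons, and of KAT2B, which lay on the other side of 0 in both, are shown from 250 bases before to 50 after a start, 5′ to 3′, from RefSeq (GRCh38.p14). The table of promoters held 8 of the 10 genes. CREBBP has 2 starts in it and KAT6B has 3, of which the first listed is shown. Capitals mark each match to GGGCGG, the GC box bound by SP/KLF factors, on either strand, and neighbouring matches can overlap.
CREBBP chr16:3880664-3880963, minus strand: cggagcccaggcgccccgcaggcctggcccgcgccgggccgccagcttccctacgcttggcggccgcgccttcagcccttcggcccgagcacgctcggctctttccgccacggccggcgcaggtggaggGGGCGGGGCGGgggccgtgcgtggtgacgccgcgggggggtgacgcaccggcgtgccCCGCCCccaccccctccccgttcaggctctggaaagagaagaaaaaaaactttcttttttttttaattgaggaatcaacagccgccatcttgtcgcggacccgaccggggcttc
KAT6B chr10:74825005-74825304, plus strand: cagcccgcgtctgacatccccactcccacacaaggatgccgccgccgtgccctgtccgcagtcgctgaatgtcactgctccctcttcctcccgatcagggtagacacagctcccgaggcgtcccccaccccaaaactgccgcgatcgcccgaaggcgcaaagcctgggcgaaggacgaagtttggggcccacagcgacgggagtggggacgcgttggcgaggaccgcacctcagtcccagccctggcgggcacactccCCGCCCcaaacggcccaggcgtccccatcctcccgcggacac
KAT7 chr17:49788431-49788730, plus strand: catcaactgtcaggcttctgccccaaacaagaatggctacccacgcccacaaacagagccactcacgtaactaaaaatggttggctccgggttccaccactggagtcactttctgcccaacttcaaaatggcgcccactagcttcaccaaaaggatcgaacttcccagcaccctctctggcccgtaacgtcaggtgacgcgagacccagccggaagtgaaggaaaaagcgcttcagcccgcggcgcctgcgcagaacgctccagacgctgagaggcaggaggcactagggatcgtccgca
KAT2B chr3:20040196-20040495, plus strand: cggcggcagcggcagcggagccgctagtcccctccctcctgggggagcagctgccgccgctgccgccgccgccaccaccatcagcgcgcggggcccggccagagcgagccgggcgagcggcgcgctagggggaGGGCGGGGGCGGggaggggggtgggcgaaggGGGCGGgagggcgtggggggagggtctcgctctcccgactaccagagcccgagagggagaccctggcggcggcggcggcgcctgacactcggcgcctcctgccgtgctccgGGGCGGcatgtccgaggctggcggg
CREBBP held 3 matches, KAT6B 1, KAT2B 4 and KAT7 0, so matches were present in both KAT2B and genes that fell. Of 27305 RefSeq promoters of this length, 44.6% held at least 1. The 4 other motifs searched on both strands were in none of these 4 windows: CCAAT (in 35.7% of all promoters), TTTNNCGC (6.90%), CACGTG (7.43%) and TGACGTCA (1.98%). The share of G and C was 70.3% for CREBBP, 69.0% for KAT6B, 57.7% for KAT7 and 80.3% for KAT2B, against a median of 58.3% over all promoters.

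Because EP300 and CREBBP, KAT6A and KAT6B, and KAT2A and KAT2B are paralogues, the ratio of their counts within a library gives a comparison that needs no scaling between libraries. The ratio of EP300 to CREBBP counts was 3.78 and 3.35 in the combination libraries and 3.69 and 3.86 with belinostat, against 2.09 and 2.07 with AsiDNA and 1.999 and 1.87 with DMSO. The ratio of KAT6A to KAT6B was 4.24 and 4.84 in the combination libraries and 4.84 and 3.97 with belinostat, against 2.12 and 2.19 with AsiDNA and 2.18 and 1.81 with DMSO. All 4 libraries with belinostat were above all 4 without it for both pairs. On the log2 scale EP300/CREBBP averaged 1.87 ± 0.09 with belinostat and 1.00 ± 0.07 without it (SD, n = 4 libraries each), a difference of 0.87. KAT6A/KAT6B averaged 2.16 ± 0.14 with belinostat and 1.05 ± 0.13 without it, a difference of 1.11. Each gave p = 0.0286 in a two-sided exact permutation test, the smallest that 4 libraries against 4 can give. The adjusted p over the 3 pairs was 0.0429 for each. The permutation exchanged all libraries freely, ignoring AsiDNA treatment, and took the libraries of a group as independent, which the sources do not establish. Within cells without and with AsiDNA the difference was 0.97 and 0.78 for EP300/CREBBP, and 1.14 and 1.07 for KAT6A/KAT6B.

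The libraries of the third pair overlapped. The ratio of KAT2A to KAT2B was 0.519 and 0.359 in the combination libraries and 0.890 and 1.157 with belinostat, against 0.784 and 0.757 with AsiDNA and 0.686 and 1.33 with DMSO. Its mean log2 ratio was -0.60 ± 0.76 with belinostat and -0.22 ± 0.43 without it (SD, n = 4 each; exact permutation p = 0.457, adjusted p = 0.457). The belinostat libraries lay between the DMSO libraries, whereas the combination libraries were the 2 lowest of all 8.

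**Figure D3:**
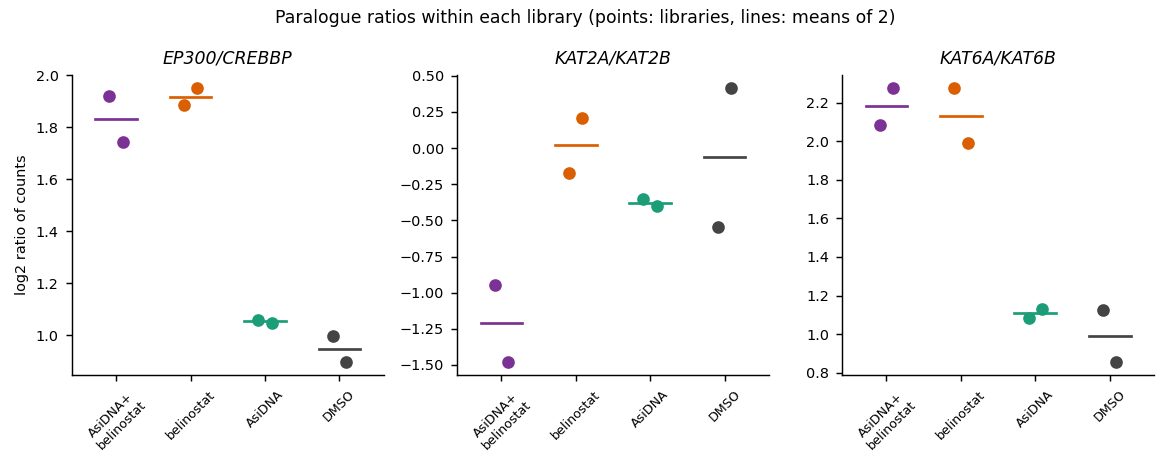
Log2 ratio of counts between paralogues in each library, by group, with points for libraries and lines for means of 2. For EP300/CREBBP and KAT6A/KAT6B the 4 libraries with belinostat form 1 level above the 4 without it, and for KAT2A/KAT2B the combination libraries alone are set apart.

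The combination against belinostat asks what long-term AsiDNA changed in cells under the deacetylase inhibitor. KAT2A, KAT8, EP300 and CREBBP were lower in the combination. Over all genes 43.4% were called (22% higher and 21.4% lower), so the 4 of 10 members called are near the background share of calls. All 4 were lower, and whether this direction departs from the background was not tested. Of the members 0 were called higher (1 at an unadjusted p under 0.05, and 0 by DESeq2). KAT2A, at 19.7 and 18.2 CPM in the combination and 39.7 and 43.7 CPM with belinostat, had the largest difference of the 10 (-1.14 ± 0.21, adjusted p = 0.00138). KAT8, at 22.2 and 22.8 CPM in the combination and 39.1 and 40.5 CPM with belinostat, followed (-0.82 ± 0.15, adjusted p = 0.0013). EP300 was at 63.9 and 58.9 CPM in the combination and 91.0 and 92.5 CPM with belinostat (-0.58 ± 0.13, adjusted p = 0.00291), and the groups did not overlap for any of these 3. CREBBP was at 16.9 and 17.5 CPM in the combination and 24.6 and 23.9 CPM with belinostat (-0.50 ± 0.16, adjusted p = 0.0243). Its groups did not overlap either. HAT1 lay above belinostat in both combination libraries without passing (0.31 ± 0.14, adjusted p = 0.08). It passed without DMSO replicate 1 or 2, which this comparison does not use (0.34 and 0.33, with smaller standard errors). Over all fits that left out 1 library it lay between 0.26 and 0.48, the latter without combination replicate 1. KAT2B, KAT5, KAT6A, KAT6B and KAT7 were between -0.23 and 0.11. The call of CREBBP was lost (adjusted p between 0.0558 and 0.181) without AsiDNA replicate 1 or 2, belinostat replicate 1 or 2, or combination replicate 1 or 2, and that of EP300 without combination replicate 2 (adjusted p = 0.0732). CREBBP was also not called by DESeq2 (-0.43, adjusted p = 0.118) or with no filter on low counts (-0.43, adjusted p = 0.103).

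The share of counts on sense-intronic genes differs between the same 2 groups and moved with KAT2A and KAT8. The 3 libraries with the highest share, belinostat replicates 1 and 2 and DMSO replicate 2, were also the 3 highest for KAT2A (39.7, 43.7 and 39.4 CPM, against at most 26.7 CPM in the other 5) and for KAT8 (39.1, 40.5 and 34.6 CPM, against at most 28.3 CPM). For EP300 they were the 3 highest as well. With the log2 of this share as a term in the fit, none of the 4 genes passed in the combination against belinostat: KAT2A was at -0.06 ± 0.26, adjusted p = 0.971, and KAT8 at -0.42 ± 0.26, adjusted p = 0.645. EP300 was then at -0.28 ± 0.19, adjusted p = 0.706, and CREBBP at -0.11 ± 0.25, adjusted p = 0.944. Over all genes 85 calls were left, against 6398 without the term. With 1 coefficient per group, the term is fitted to differences of the share within groups. These were largest between the DMSO libraries (0.0570% and 0.113%). The fits with the term therefore cannot tell the share from other differences between those 2 libraries. With the same term CREBBP, KAT6B and KAT7 still fell with belinostat against DMSO, at -1.20, -1.61 and -0.63, and KAT2B rose by 0.63 (adjusted p = 0.00102). In AsiDNA cells, where the share did not separate the groups, 4 genes gained a call with the term. Their log2 fold changes were smaller in size than without it, and so were their standard errors. Without the term the standard errors were 0.16 for KAT2B, 0.13 for EP300, 0.22 for KAT2A and 0.15 for KAT5. These calls were not set against the share of all genes called in that fit. KAT2B was higher at 0.35 ± 0.12, adjusted p = 0.0108, and EP300 (-0.30 ± 0.10, adjusted p = 0.0071), KAT2A (-0.39 ± 0.14, adjusted p = 0.0146) and KAT5 (-0.34 ± 0.13, adjusted p = 0.0215) were lower.

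**Figure D4:**
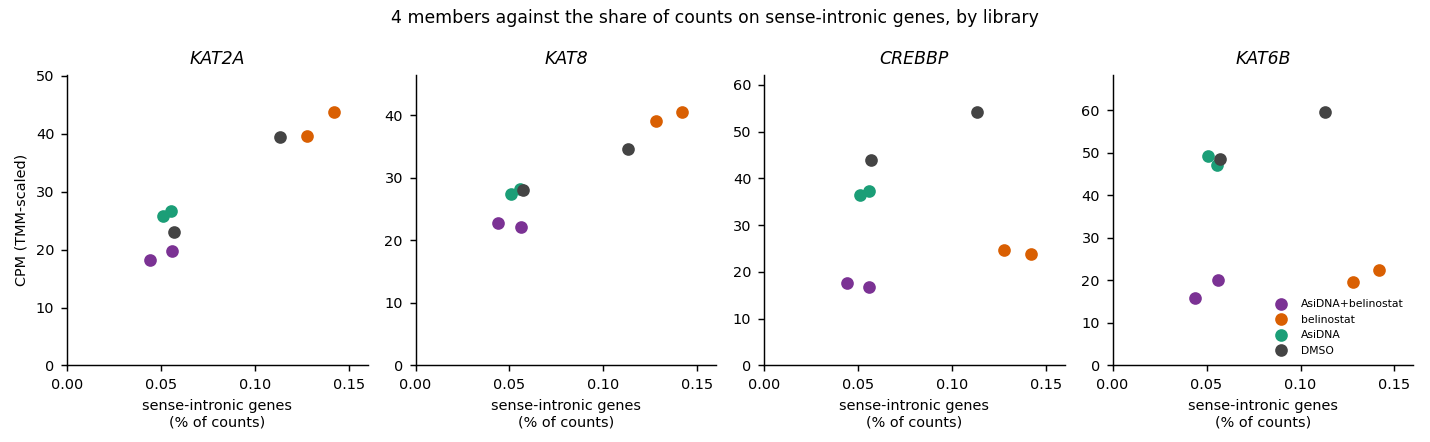
CPM of 4 genes in each library against the percent of that library's counts on sense-intronic genes. KAT2A and KAT8 are highest in the 3 libraries above 0.1%, 2 with belinostat and 1 with DMSO, whereas CREBBP and KAT6B are low in the 4 libraries with belinostat at either share.

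Long-term AsiDNA without belinostat, set against DMSO, gave 0 calls among the 10 genes, where 3 of all tested genes (0.0204%) were called. By edgeR 2 members were below DMSO at an unadjusted p under 0.05, and DESeq2 called 0. These were CREBBP at -0.41 ± 0.14, adjusted p = 0.367, and EP300 at -0.30 ± 0.12, adjusted p = 0.396, with both AsiDNA libraries below both DMSO libraries. The other 8 lay between -0.25 (KAT2A) and 0.11 (KAT2B). Leaving out a DMSO library changed this. Without DMSO replicate 1 there were 4955 calls over all genes, and CREBBP at -0.53, KAT2A at -0.57 and EP300 at -0.38 were lower (adjusted p = 0.00161, 0.00194 and 0.00553). Without DMSO replicate 2 there were 62 calls and none among the 10 genes.

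The combination against DMSO, which adds both treatments, had the most calls: 7 of 10 genes fell and KAT2B rose, against 23.7% lower and 24.3% higher (48.1% in all) over all tested genes. It shares its libraries with the comparisons above. KAT6B was at -1.60 ± 0.17, adjusted p = 5.55e-06. CREBBP was at -1.51 ± 0.15, adjusted p = 4.8e-06, and KAT7 at -0.75 ± 0.15, adjusted p = 0.00116. KAT2A (-0.73 ± 0.21), EP300 (-0.62 ± 0.12), KAT8 (-0.48 ± 0.15) and KAT6A (-0.40 ± 0.12) fell less, with adjusted p between 0.00107 and 0.019. KAT2B rose by 0.49 ± 0.16 (adjusted p = 0.022), a call that was lost without combination replicate 2 (adjusted p = 0.402). KAT2A, KAT6A and KAT8 also lost their calls without that library (adjusted p = 0.0841, 0.104 and 0.0719). Without DMSO replicate 2 KAT2A was at -0.30 and KAT8 at -0.32 (adjusted p = 0.141 and 0.0842), and without combination replicate 1 KAT8 missed as well (0.0942). DESeq2 did not call KAT8 (adjusted p = 0.068) or KAT2B (0.0521). In a fit of only these 2 groups KAT2A, KAT8 and KAT2B were not called (adjusted p = 0.0576, 0.0591 and 0.0874). When the fit held the sense-intronic share, KAT2A (-0.16), KAT8 (-0.28) and KAT2B (0.28) did not pass. KAT5 (-0.31 ± 0.15) and HAT1 (0.02 ± 0.13) did not pass in the fit of all libraries.

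The interaction tests whether belinostat acted differently in AsiDNA cells. It called none of the 10 genes and 1 of all tested genes (0.00678%). Of the 10, 2 were below 0 at an unadjusted p under 0.05, and DESeq2 called 0. For KAT6B (-0.07 ± 0.23), CREBBP (-0.08 ± 0.21), KAT7 (-0.01 ± 0.21) and KAT2B (0.00 ± 0.23) the difference between the effects was smaller than its standard error. KAT2A, at -0.88 ± 0.30, adjusted p = 0.125, and KAT8, at -0.65 ± 0.21, adjusted p = 0.119, had the largest differences.

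Most acetyltransferases act as subunits of larger complexes, and 98 genes of 8 lists around them were counted in the same fits, of which 96 passed the filter. With belinostat against DMSO 43 of these fell and 18 rose (44.8% and 18.8%), against 27.6% and 29.8% of all tested genes, with a median of -0.30. Some of them stand in 2 lists. In AsiDNA cells 37 fell and 10 rose (38.5% and 10.4%), against 21.2% and 21.7%, with a median of -0.22. The 18 rises were 11 without belinostat replicate 1, and the 10 rises in AsiDNA cells were 4 without AsiDNA replicate 1 or 2 and 6 without combination replicate 1 or 2. AsiDNA against DMSO called 0 of the 96, and the combination against belinostat called 28 lower and 22 higher (29.2% and 22.9%).

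Subunits of SAGA and ATAC, the complexes of KAT2A and KAT2B, had 14 of 23 lower and 2 higher (median -0.46). The histone-fold-like subunit TAF6L fell by 1.5 ± 0.21, the scaffold WDR5, also an NSL subunit, by 0.84 ± 0.14 and the ATAC subunit ZZZ3 by 0.79 ± 0.12, while the SAGA subunit SUPT7L rose by 1.23 ± 0.14. In the TIP60-EP400 complex of KAT5, 8 of 17 fell and 3 rose (median -0.37). EPC2 fell by 1.35 ± 0.14, the acetyl-reader YEATS4 by 0.95 ± 0.18 and the actin-like subunit ACTL6A by 0.86 ± 0.14, and MBTD1 rose by 1.204 ± 0.21. Of the partners of KAT6A, KAT6B and KAT7, 5 of 9 fell and 2 rose (median -0.45): BRPF3 fell by 1.40 ± 0.26, JADE2 by 1.21 ± 0.17 and JADE3 by 1.11 ± 0.26, whereas ING4, a plant homeodomain reader, rose by 1.68 ± 0.18. In the MSL and NSL complexes of KAT8, 6 of 11 fell and 3 rose (median -0.49), with MCRS1 down by 1.27 ± 0.14, HCFC1 by 1.08 ± 0.12, and OGT, the O-GlcNAc transferase, up by 1.55 ± 0.20.

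Partners of HAT1 and chaperones of new histones had 5 of 8 lower and 0 higher (median -0.65). ASF1B, which hands new histones to the assembly factors, fell by 1.53 ± 0.17, CHAF1B by 1.499 ± 0.17, the HAT1-binding protein RBBP4 by 1.05 ± 0.14 and NASP by 0.96 ± 0.13. HAT1 itself was at -0.29 ± 0.14 and did not pass. Of 7 tested genes of acetyl-CoA supply 3 fell and 1 rose (median -0.37), among them ACLY, which makes acetyl-CoA from citrate, at -0.74 ± 0.13, CRAT at -0.65 ± 0.15, the citrate carrier SLC25A1 at -0.65 ± 0.18 (-0.30 and not called with the sense-intronic term) and the acetate enzyme ACSS2 at 0.47 ± 0.16. Other acetyltransferases had 4 of 14 lower and 3 higher (median 0.02), with ESCO2, which acetylates cohesin, at -1.44 ± 0.16, CLOCK at -1.36 ± 0.14, GTF3C4 at -1.10 ± 0.16 and NAA50 at -0.97 ± 0.15. Deacetylase genes had 4 of 10 higher and 1 lower (median 0.22), with HDAC3 at 1.61 ± 0.12, HDAC5 at 1.39 ± 0.15, HDAC8 at 1.18 ± 0.20 and HDAC6 at 0.64 ± 0.14, whereas HDAC1 (0.02 ± 0.12) and HDAC2 (-0.12 ± 0.13) did not pass. All named partners other than HDAC1 and HDAC2 had an adjusted p of 0.0253 or less with belinostat against DMSO. They were picked as the genes of each list with the smallest adjusted p in that comparison, so these low values follow from the choice.

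**Figure D5:**
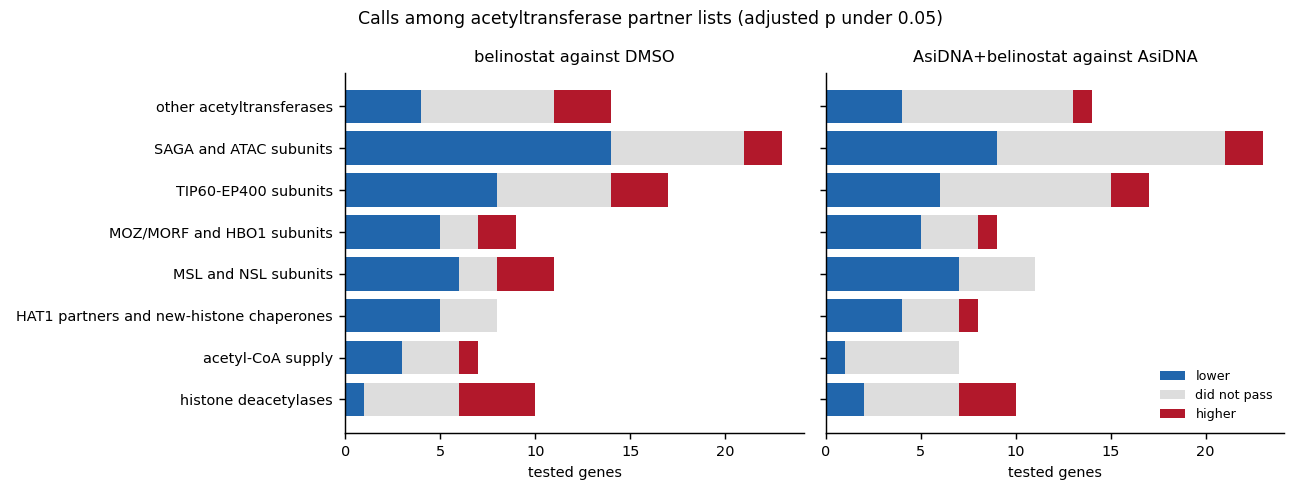
Number of tested genes in each of 8 lists that were lower, did not pass or were higher at an adjusted p under 0.05, with belinostat against DMSO on the left and in AsiDNA cells on the right. Lower genes outnumber higher ones in every list but the deacetylases in both panels.

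In AsiDNA cells the counts of lower and higher genes were 9 and 2 of 23 for SAGA and ATAC, 6 and 2 of 17 for TIP60-EP400, 5 and 1 of 9 for the partners of KAT6A, KAT6B and KAT7, and 7 and 0 of 11 for MSL and NSL. OGT was at 0.44 ± 0.20 there (adjusted p = 0.087), ING4 at 0.58 ± 0.20 and MBTD1 at 0.64 ± 0.24. The partners of HAT1 had 4 of 8 lower and 1 higher, acetyl-CoA supply 1 of 7 lower and 0 higher, the other acetyltransferases 4 of 14 lower and 1 higher, and the deacetylases 2 of 10 lower and 3 higher. With AsiDNA added to belinostat, ING4 (-1.28 ± 0.18), OGT (-1.60 ± 0.20), MBTD1 (-1.22 ± 0.22), SUPT7L (-0.78 ± 0.14) and HDAC6 (-0.95 ± 0.15) were lower than with belinostat alone, whereas SLC25A1 (1.10 ± 0.18), CRAT (0.93 ± 0.15), ASF1B (0.93 ± 0.18), NAA50 (0.83 ± 0.15) and RBBP4 (0.68 ± 0.14) were higher, all with an adjusted p of 0.00208 or less. The sense-intronic share separates these 2 groups as well, and the term has the limit given above. With it as a term none of these 10 genes passed: ING4 was at -1.17 ± 0.36, OGT at -0.50 ± 0.17, CRAT at 0.68 ± 0.22 and MBTD1 at -0.13 ± 0.31, and the lowest adjusted p of the 10 was 0.141. OGT and MBTD1 were also higher in DMSO replicate 2 (325 and 22.6 CPM) than in DMSO replicate 1 (189 and 13.6 CPM).

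The genes whose log2 CPM followed each member most closely over the 8 libraries were found among 11101 genes by Pearson's r, given as a description, since the libraries share their groups and any gene that responds to belinostat scores high. KAT6B was most like TEDC1 (0.998), CREBBP like NR2C2 (0.993), and KAT7 like TAPT1 (0.993). EP300 was most like SON (0.996), which encodes a splicing cofactor, KAT2A like RBM26 (0.993), an RNA-binding protein gene, and KAT8 like PRPF4B (0.989), a kinase gene of the splicing machinery. HAT1 was most like CLPX (0.996), a mitochondrial chaperone gene, and then like RPA3 (0.992), a subunit of replication protein A. KAT5 was most like HIVEP2 (0.986), KAT6A like PODXL (0.979) and KAT2B like PREPL (0.969). Between members, KAT2A and KAT8 were the closest pair (r = 0.976), followed by CREBBP and KAT6B (0.951) and KAT6B and KAT7 (0.941), and KAT2B and KAT6B were the most opposed (-0.902).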

How the data were processed

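Total RNA of U87 cells was depleted of ribosomal RNA and made into stranded TruSeq libraries, per the labels' protocols. The authors trimmed reads with cutadapt 1.16, aligned them with STAR 2.7.0 to GRCh38 and counted them per gene with featureCounts 1.6.3, according to the submitters' processing notes. Their deposited table holds raw counts per gene. The sources used here name neither the annotation release nor the strand setting. Symbols were found for 58876 of 58884 identifiers, and loci and exon lengths came from the GENCODE annotation (GRCh38).

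Counts of the 8 libraries, all mapped to a group by label, were filtered with filterByExpr, scaled with TMM factors and fitted together with 1 coefficient per group in edgeR 4.0.16 (R 4.3.3), which left 4 residual degrees of freedom. The 5 comparisons and the interaction were tested with the quasi-likelihood test, and p-values were adjusted by Benjamini-Hochberg over 14741 genes. The standard error is the log2 fold change over the square root of F. Log2 CPM used a prior count of 2. Paralogue ratios took the log2 ratio of counts with 0.5 added, tested by exact permutation. Named genes are the 10 members, HDAC1, HDAC2, HDAC3 and up to 4 genes of each partner list, those with the smallest adjusted p with belinostat against DMSO. Of the genes of closest pattern, the first of each member (for HAT1 the first 2) is named. The member and partner lists and the alternatives were chosen with earlier results of these data known. ATXN7 had 2 identifiers, of which the first was used. The fits were tested on simulated data.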

Additional observations from a re-analysis of the deposited data

Results flagged for a closer look

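The libraries of KAT2A and KAT8 were ordered oppositely with belinostat in the 2 backgrounds, although none of the 4 differences passed (adjusted p between 0.0592 and 0.126). For KAT2A both belinostat libraries (39.7 and 43.7 CPM) were above both DMSO libraries (23.1 and 39.4 CPM), while both combination libraries (19.7 and 18.2 CPM) were below both AsiDNA libraries (26.7 and 25.8 CPM). The difference between the effects was -0.88 ± 0.30 on the log2 scale, with an unadjusted p = 0.0104 and an adjusted p = 0.125 in edgeR. KAT8 had the same order of libraries, and its difference was -0.65 ± 0.21, with an unadjusted p = 0.00881 and an adjusted p = 0.119. Neither interaction therefore passed after adjustment over all genes. Without DMSO replicate 2, the DMSO library with the higher value of both genes, the differences were -1.30 for KAT2A and -0.79 for KAT8. DMSO was then a lone library, and interaction calls rose over all genes as well, so this is not particular to the 2 genes. Over all alternatives the differences lay between -1.30 and -0.30 for KAT2A and between -0.79 and -0.42 for KAT8. The share of counts on sense-intronic genes was 0.128% and 0.142% with belinostat and 0.0570% and 0.113% with DMSO, and 0.0561% and 0.0440% in the combination and 0.0556% and 0.0510% with AsiDNA. With this share as a model term the interactions were -0.30 ± 0.22, adjusted p = 0.62 for KAT2A and -0.42 ± 0.22, adjusted p = 0.409 for KAT8. That term is fitted to differences of the share within groups, which were largest between the DMSO libraries.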

How the results depend on the processing

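The falls of CREBBP, KAT6B and KAT7 with belinostat kept their direction and call in both comparisons under all 18 alternatives. No called value of the 10 genes reversed. Over the 10 genes and 6 comparisons, 895 values kept their side of the threshold, 54 gained a call, 46 lost one and 75 uncalled values changed sign. Counts of 2 libraries a group limit every call, and the cause of each change was not tested.

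Scaling by library size alone gave 6 members lower with belinostat against DMSO and 7 in AsiDNA cells, 6 partners higher there, 1 gene called with AsiDNA against DMSO and 157 in the interaction. With belinostat against DMSO 6 members were also lower with no filter and with a filter at 1 CPM, where 4856 and 4535 of all genes were called lower. With no filter 520 genes were called with AsiDNA against DMSO and 1549 in the interaction, and with the 1 CPM filter 351 in the interaction and 1 member higher in the combination against belinostat. DESeq2 called 6 partners higher in AsiDNA cells, 28 genes with AsiDNA and 705 in the interaction, and RLE factors gave 10 there. Fits of only the groups compared gave 11 partners higher with belinostat, 0 genes with AsiDNA and 1 member higher in the combination against belinostat. In AsiDNA cells they gave 16 partners and 1 member higher and 8 members lower. They give no interaction. The members that gained a call in AsiDNA cells had smaller standard errors, both here and with the sense-intronic term below. The share of all genes called was not set beside the member counts in either setting. The sense-intronic term gave 1 member higher in both belinostat comparisons, 7 lower in AsiDNA cells, 0 lower and 85 genes in the combination against belinostat, 47 genes with AsiDNA and 238 in the interaction. Fitted with this term after the data were seen, 33 named partners kept 31, 28 and 11 of their outcomes with belinostat against DMSO, in AsiDNA cells and in the combination against belinostat; ESCO2 (-0.11), GTF3C4 (-0.21) and HDAC8 (0.21) changed sign in the last and were not called. At an adjusted p under 0.01 there were 0 genes with AsiDNA, 0 in the interaction, 3804 in the combination against belinostat and 4 members lower in the combination against DMSO. A 1.5-fold minimum left 2 members lower in the combination against belinostat. KAT2B, the 1 member higher in the combination against DMSO, was lost (0) under 7 of these: library size, DESeq2, no filter, only the groups compared, the sense-intronic term, the stricter p and the fold minimum.

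Replicate numbers did not pair the libraries (correlations of deviations between -0.31 and 0.19). With the replicate block 5 genes were called with AsiDNA and 19 in the interaction, and no other count moved by over 1.5 times. Same-numbered pairs gave ratio differences of 0.87 for EP300/CREBBP and 1.11 for KAT6A/KAT6B, where 4 pairs cannot reach the threshold. Within cells without and with AsiDNA the first was 0.97 and 0.78.

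Leaving out 1 library gave the following ranges. Members higher and lower were 0 to 2 and 3 to 4 with belinostat against DMSO, 0 to 1 and 3 to 8 in AsiDNA cells, 0 and 0 to 3 with AsiDNA (3 without DMSO replicate 1), 0 to 1 and 2 to 4 in the combination against belinostat, 0 to 1 and 4 to 7 in the combination against DMSO, and 0 and 0 to 2 in the interaction (2 without DMSO replicate 2). Partners higher were 11 to 22 with belinostat and 4 to 14 in AsiDNA cells. Genes called were 4102 to 8247 in AsiDNA cells (lowest without an AsiDNA library), 0 to 4955 with AsiDNA (highest without DMSO replicate 1), 3142 to 8477 in the combination against belinostat (lowest without combination replicate 2) and 0 to 5358 in the interaction (highest without DMSO replicate 2). The ratio differences were 0.84 to 0.91 for EP300/CREBBP and 1.04 to 1.162 for KAT6A/KAT6B, where 4 libraries against 3 cannot reach the threshold. A lone library of a group was assumed to vary like the other groups.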

Other observations

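A gene annotated as sense-intronic, ENSG00000278133, lies in introns of KAT8 on the same strand and shares no exon bases with it. It gave 48 and 48 counts in the combination libraries, 99 and 66 with belinostat, 91 and 59 with AsiDNA and 80 and 116 with DMSO. KAT8 gave 133 and 178, 333 and 239, 234 and 189 and 278 and 355 counts in the same libraries. The gene was chosen after its values were seen, and its differences were not tested.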
